A study of Mus musculus with 36 samples.

Results

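The nucleus accumbens (NAc) of mice given Cpd-60 was set beside the NAc of mice given CI-994, 3 arrays against 3, out of 36 arrays in the whole series. Within this comparison the arrays were taken by their labelled region and treatment alone. The comparison itself was chosen with earlier results of these data known. Adult male C57BL/6 mice, 11 weeks old and given as C57BL/6J in the labels, received 10 daily intraperitoneal injections and were killed 1 h after the last. Cpd-60 was given at 45 mg/kg in 7.5 mL/kg and CI-994 at 10 mg/kg in 5 mL/kg. The 3 vehicle pools used below received 7.5 mL/kg, and SAHA, the fourth treatment, entered the fit for its spread only. Because dose and injected volume differ, compound and dose cannot be told apart in any difference given here. Each array held RNA pooled from 2 mice, so a group of 3 arrays stands for 6 mice. The p-values in NAc set a difference against the spread between pools within all 4 treatments, not between single mice.

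Histone deacetylases (HDACs) remove acetyl groups from histone tails and, as parts of corepressor complexes, generally lower transcription of the genes they occupy. Cpd-60 is a benzamide-based inhibitor selective for HDAC1 and HDAC2, and CI-994 is a benzamide that inhibits class I HDACs more broadly, HDAC3 included. The NAc is the ventral part of the striatum, a reward and motivation center whose principal cells are medium spiny neurons. The comparison asks which transcripts differ between these inhibitors after repeated dosing in that region. The tissue label was checked first. Of 32 striatal marker genes, 27 were detected on all 12 NAc arrays, among them the dopamine receptors Drd1a and Drd2, the signalling protein Ppp1r1b and the opioid precursor Penk1. Their summed intensity was between 45554 and 73134 in the NAc, against 11727 to 13227 in the prefrontal cortex (PFC) and 8418 to 10254 in the hippocampus (HIP), so the ranges did not overlap.

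Transcripts were measured on Illumina MouseWG-6 BeadChips, and levels below are log2 of quantile normalized intensity. The 12 NAc arrays lay on 2 BeadChips of 6, and the first principal component, with 53.1% of the variance, separated the BeadChips without overlap. Cpd-60 pools 1 and 2 and CI-994 pool 1 were on BeadChip 1, and Cpd-60 pool 3 and CI-994 pools 2 and 3 on BeadChip 2. Vehicle was split as Cpd-60 was, with pools 1 and 2 on BeadChip 1 and pool 3 on BeadChip 2. The treatments are therefore unevenly split over the BeadChips, and values with the BeadChip as a block, or within each BeadChip, are given beside the results they touch. The labels of Cpd-60 pool 2 disagree on which mice it held, and without it 189 probes were called higher and 187 lower by the rule below, in place of 271 and 185. Over the 12 NAc arrays, raw 95th percentiles were between 349.9 (Cpd-60 pool 1) and 1079.7 (Cpd-60 pool 3). On BeadChip 1 they were 349.9 and 548.1 under Cpd-60 and 1015.1 under CI-994. On BeadChip 2 they were 1079.7 under Cpd-60 and 725.2 and 535.5 under CI-994. Raw brightness therefore also differed between the compounds within each BeadChip. The share of probes detected at a p of at most 0.01 was between 31.9% and 43.3% over the 12 arrays.

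Of 21352 probes tested with limma, 0 passed an adjusted p under 0.05 (Benjamini-Hochberg), and the smallest adjusted p was 0.926. At an unadjusted p under 0.05 there were 1079 probes, 5.05% of those tested. With the BeadChip as a block the count was again 0 at the adjusted threshold (smallest adjusted p 0.397) and 1608 at the unadjusted threshold. A gene is called higher or lower below where its unadjusted p was under 0.05 and the difference at least 1.2-fold. Every gene in the following paragraphs fails the correction over all probes, and each call is to be read against the share of genes called at the same threshold. That share was 1.31% higher and 1.1% lower under Cpd-60, or 190 and 160 of 14548 genes, and with the block it was 1.32% and 1.77%. Over probes, 59.4% of calls were in the higher direction, 47.5% with the block and 7.54% when arrays were scaled to a common median in place of quantile normalization. In 121 of the higher and 120 of the lower genes the 3 pools of one compound also lay wholly apart from those of the other, of which 87 and 108 were called again with the block. Pools lay wholly apart in 4.4% of all genes with Cpd-60 above and in 5.93% with Cpd-60 below.

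**Figure D1:**
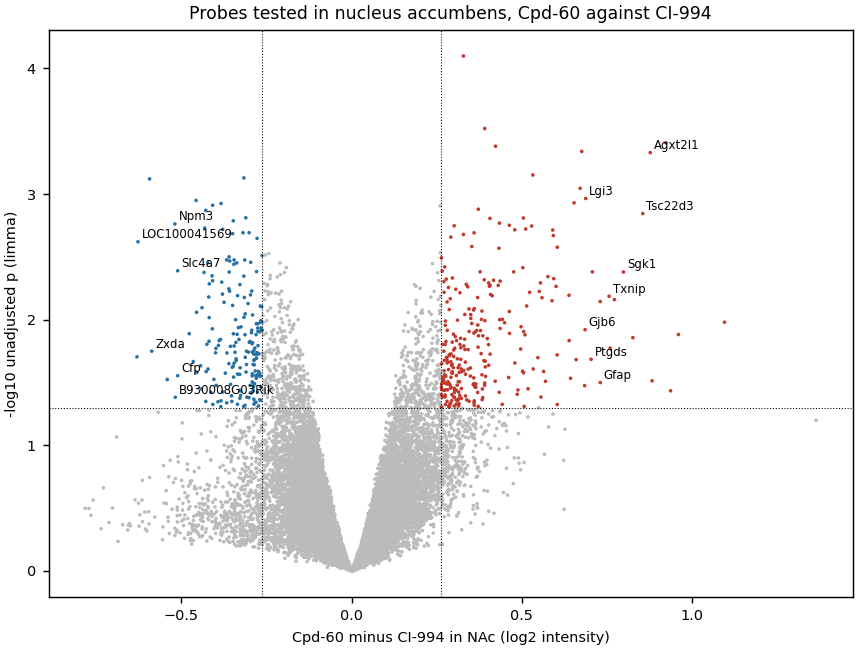
Each point is 1 of the 21352 probes tested in NAc, with the Cpd-60 minus CI-994 difference (log2 intensity) on the x axis and -log10 of limma's unadjusted p on the y axis. Red and blue points, 271 higher and 185 lower under Cpd-60, pass the dotted lines at 1.2-fold and p of 0.05, and the labels mark some of the leading genes named in the text, none of which passes the adjusted threshold.

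Among called genes with separate pools, the 15 largest differences in the higher direction ran from 1.51-fold to 1.84-fold. All 15 were called again with the BeadChip as a block. Their sign within each BeadChip was fixed by the choice of genes with separate pools, which favors the call with the block too. When each of the 12 NAc pools was left out in turn, 11 of the 15 kept an unadjusted p under 0.05 in every fit (limma). Gfap, Gjb6, Ptgds and Tsc22d4 lost it in at least 1. Leaving out a vehicle or SAHA pool cannot change the difference between the compounds and alters only its SE. Gjb6 went from 0.69 to 0.45 without CI-994 pool 1, and Txnip from 0.76 to 0.50 without Cpd-60 pool 2. Agxt2l1, Tsc22d3 and Sgk1 led them. The first, now named Etnppl, encodes an astrocyte-enriched lyase that breaks down phosphoethanolamine. Its level was 7.91, 8.07 and 8.30 in the Cpd-60 pools and 6.96, 7.26 and 7.42 in the CI-994 pools, against 7.27, 7.26 and 7.23 under vehicle. All Cpd-60 pools were above all CI-994 and vehicle pools, while the CI-994 pools spread around the vehicle level. The Agxt2l1 difference was 0.88 ± 0.18 (log2, SE), or 1.84-fold (unadjusted p = 0.000467 and adjusted p = 0.926 by limma). It was 1.03 within BeadChip 1 and 0.95 within BeadChip 2, and a second Agxt2l1 probe gave 0.71.

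Tsc22d3, which encodes the glucocorticoid-induced leucine zipper protein, was at 9.62, 10.02 and 9.62 under Cpd-60 and at 8.50, 9.05 and 9.15 under CI-994. Vehicle pools were at 8.79, 8.92 and 8.99, within the range of the CI-994 pools. The Tsc22d3 difference was 0.85 ± 0.20 (unadjusted p = 0.00143, adjusted p = 0.926, limma), with 1.32 within BeadChip 1 and 0.52 within BeadChip 2. Sgk1 encodes a kinase that regulates ion channels and transporters and is induced by glucocorticoids. Its level was 11.11, 10.96 and 10.08 under Cpd-60 against 10.06, 9.86 and 9.84 under CI-994 and 9.92, 10.01 and 9.97 under vehicle. The third Cpd-60 pool of Sgk1 thus lay only just above the highest CI-994 pool, and the difference of 0.80 ± 0.22 (unadjusted p = 0.00417, adjusted p = 0.926, limma) was 0.98 within BeadChip 1 and 0.23 within BeadChip 2.

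Sult1a1, a sulfotransferase of phenols and catecholamines, had the same uneven profile. Its level was 8.04, 8.15 and 7.52 under Cpd-60, 7.27, 7.19 and 7.20 under CI-994, and 7.53, 7.52 and 7.38 under vehicle. The third Cpd-60 pool was at the vehicle level, and the CI-994 pools lay below all vehicle pools. The Sult1a1 difference was 0.68 ± 0.14 (unadjusted p = 0.000457, adjusted p = 0.926, limma) and 0.60 with the BeadChip as a block.

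**Figure D2:**
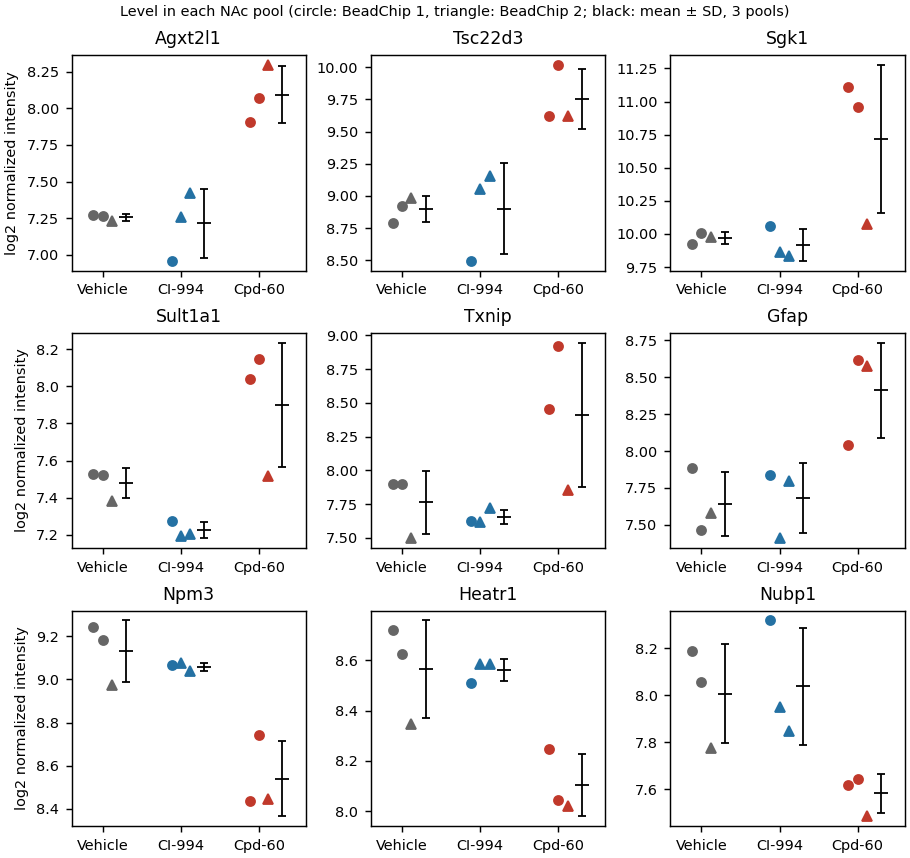
Log2 normalized intensity (y axis) of 9 genes in each of the 3 vehicle, CI-994 and Cpd-60 NAc pools (x axis), with circles for BeadChip 1, triangles for BeadChip 2 and the mean ± SD in black. Cpd-60 pools lie above all CI-994 pools in the first 6 genes and below them in Npm3, Heatr1 and Nubp1, and Cpd-60 pool 3 is the nearest to CI-994 for Sgk1, Sult1a1 and Txnip.

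Because glucocorticoid-responsive genes stood among these leaders, the 250 bases before a start site of 3 of them are shown. They come from the RefSeq promoter windows (mouse build GRCm38.p6). Where a gene had several windows, the one with the most matches to the motif below was picked. The activated glucocorticoid receptor binds as a dimer to a palindrome of AGAACA and TGTTCT with 3 bases of any kind between them, and either arm alone is a half-site. Each arm is the other read on the opposite strand, so a search for both covers both strands, and the arms of a full palindrome count as half-sites too. Capitals mark matches to the palindrome or a half-site.
Sgk1, chr10:21993640-21993889, plus strand: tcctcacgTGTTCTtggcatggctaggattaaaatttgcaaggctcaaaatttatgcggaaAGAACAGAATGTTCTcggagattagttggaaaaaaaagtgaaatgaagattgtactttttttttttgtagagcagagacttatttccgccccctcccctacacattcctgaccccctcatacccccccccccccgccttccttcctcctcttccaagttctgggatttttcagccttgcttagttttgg
Tsc22d3, chrX:140600523-140600772, minus strand: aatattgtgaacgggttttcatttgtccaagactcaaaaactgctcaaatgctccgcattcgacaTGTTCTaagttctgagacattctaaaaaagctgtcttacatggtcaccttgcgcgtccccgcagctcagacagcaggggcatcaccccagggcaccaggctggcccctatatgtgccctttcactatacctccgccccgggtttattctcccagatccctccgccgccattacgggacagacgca
Sult1a1, chr7:126676419-126676668, minus strand: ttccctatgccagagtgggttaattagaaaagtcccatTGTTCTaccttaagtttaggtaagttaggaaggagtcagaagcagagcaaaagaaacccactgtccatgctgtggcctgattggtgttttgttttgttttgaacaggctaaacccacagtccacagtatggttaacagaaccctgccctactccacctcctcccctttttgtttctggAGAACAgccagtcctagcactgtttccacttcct
The full palindrome in this Sgk1 window, 1 of 6 for the gene, began at position -189 from the start site, and a further half-site lay at -242. Over all 32851 RefSeq windows of 250 bases before to 50 after a start, only 3 held the full palindrome, or 0.0091%. The Sgk1 window was 1 of them, but it was picked for its matches, so nothing is read from it against that share. A half-site was common, present in 19.0% of windows. Tsc22d3 held 1 half-site in 1 of its 3 windows and Sult1a1 held 2 in its only window, while the 2 Etnppl windows held none. Over the 13 of the 15 leading higher genes that had a window, 3 had a half-site (23.1% of genes, against 21.3% of all genes), a share near the background. These matches describe the letters of the windows, and binding was not measured here.

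The other leading higher genes included regulators of metabolism and growth and several glial genes. Txnip, which inhibits thioredoxin and glucose uptake, was at 8.45, 8.92 and 7.86 under Cpd-60 and at 7.63, 7.62 and 7.72 under CI-994. Its difference was 0.76 ± 0.22, but 1.06 within BeadChip 1 and 0.19 within BeadChip 2. Cirbp, a cold-inducible RNA-binding protein, was at 8.85, 8.97 and 8.29 under Cpd-60 against 7.95, 8.05 and 8.15 under CI-994. For both genes the lowest Cpd-60 pool was pool 3, close to the CI-994 range. Gfap, the intermediate filament of astrocytes, was at 8.04, 8.62 and 8.58 against 7.84, 7.41 and 7.80, a difference of 0.73 ± 0.30. Gjb6, a gap junction protein of astrocytes, was at 9.23, 9.64 and 9.79 against 8.39, 9.004 and 9.21, a difference of 0.69 ± 0.23. Both genes had separate pools, although the nearest pools of Gjb6 were almost level. In bulk tissue, more cells of a type and more RNA per cell cannot be told apart. Ptgds, a prostaglandin D synthase of leptomeninges, choroid plexus and oligodendrocytes, was at 9.53, 9.42 and 9.59 under Cpd-60 and 8.39, 8.90 and 9.15 under CI-994. The summed intensity of 9 tested choroid plexus and ependyma genes was 1826 to 3727 under Cpd-60 and 1730 to 2177 under CI-994. Of these 9 genes 1 was called higher (Rarres2), where 1.31% of all genes were. The part of this tissue in the Ptgds difference was not tested. Ttr, the transthyretin of choroid plexus, was at 8.19, 7.66 and 10.16 under Cpd-60 and 8.07, 8.53 and 7.53 under CI-994, with Cpd-60 pool 3 the highest. Cnp, an enzyme of myelinating oligodendrocytes, was at 9.79, 9.37 and 9.64 against 9.19, 8.85 and 8.99. Vehicle Cnp was at 9.56, 9.30 and 8.98, a range that reached into both compounds' pools. The remaining leaders were Lgi3 (a secreted protein, 1.61-fold), Flywch2 (1.59-fold) and Tsc22d4 (a paralog of Tsc22d3, 1.56-fold), with Rhou (a small GTPase, 1.52-fold) and Pglyrp1 (a peptidoglycan recognition protein of innate immunity, 1.52-fold).

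The 15 largest differences in the lower direction were smaller, from 1.35-fold to 1.55-fold. All 15 were called again with the block, and the choice of genes with separate pools again fixed the sign within each BeadChip. When each of the 12 NAc pools was left out in turn, 9 of the 15 kept an unadjusted p under 0.05 throughout (limma), and B930008G03Rik, C130080K17Rik, Cfp, Sox21, Srf and Zxda did not. Sox21 went from -0.45 to -0.22 without Cpd-60 pool 1, and Zfhx2 from -0.44 to -0.28 without Cpd-60 pool 2. Npm3, a nucleolar histone chaperone, was at 8.44, 8.74 and 8.44 under Cpd-60 and at 9.07, 9.07 and 9.04 under CI-994. Vehicle pools of Npm3 were at 9.24, 9.18 and 8.97, beside the CI-994 pools and above all Cpd-60 pools. The Npm3 difference was -0.52 ± 0.12 (unadjusted p = 0.00173, adjusted p = 0.926, limma), while a dimmer second probe for the gene gave 0.01. Heatr1, a ribosome biogenesis factor, was at 8.25, 8.04 and 8.02 under Cpd-60, at 8.51, 8.59 and 8.59 under CI-994 and at 8.72, 8.63 and 8.35 under vehicle. Its difference was -0.46 ± 0.10 (unadjusted p = 0.00112, adjusted p = 0.926, limma). Nubp1, an assembly factor of cytosolic iron-sulfur proteins, was at 7.62, 7.64 and 7.48 under Cpd-60 and at 8.32, 7.95 and 7.85 under CI-994, a difference of -0.46 ± 0.14.

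Slc4a7, a sodium bicarbonate cotransporter, was at 7.28, 7.26 and 7.77 under Cpd-60 and at 8.06, 7.92 and 7.87 under CI-994. Its Cpd-60 pool 3 lay almost at the CI-994 level, and the difference was -0.79 within BeadChip 1 and -0.12 within BeadChip 2. Slco1c1, the thyroid hormone and organic anion transporter of the blood-brain barrier, was at 8.39, 8.12 and 8.54 against 8.84, 8.77 and 8.71, a difference of -0.43 ± 0.10. Transcription factors in the lower group were Srf, Sox21, Zfhx2 and Zxda, with differences of -0.44, -0.45, -0.44 and -0.59. For Srf and Sox21 a second probe gave 0.11 and 0.03, so the probes of these genes disagree. Srf also differed by -0.06 within BeadChip 1 and -0.71 within BeadChip 2. The remaining genes were LOC100041569, B930008G03Rik, Cfp (properdin, a positive regulator of complement), C130080K17Rik, 0610037L13Rik (now Czib) and 2510022D24Rik.

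The leading differences were also set against vehicle, with the vehicle arrays shared by both comparisons. These genes were chosen on the same Cpd-60 and CI-994 arrays, which favors differences from vehicle too, so the counts describe the chosen genes and nothing is read from them against the share of all genes. Of the 15 leading higher genes, 13 were called higher under Cpd-60 than under vehicle (0.935% of all genes were), with differences of 0.41 to 0.85 in those 13. The other two, Cnp and Gjb6, differed by 0.32 and 0.49. In the same 15 genes the CI-994 minus vehicle difference was between -0.27 and 0.04, and 0 were called lower (0.302% of all genes were). For Tsc22d3 the CI-994 minus vehicle difference was -0.00 with a 95% interval of -0.44 to 0.44, and for Agxt2l1 it was -0.04 (-0.43 to 0.35). Only changes under CI-994 that lie within these intervals are left possible by them. Of the 15 leading lower genes, 10 were called lower under Cpd-60 than under vehicle (1.23% of all genes were), with differences of -0.70 to -0.32. In 1 of them, LOC100041569, CI-994 was called higher than vehicle, by 0.36, where 0.117% of all genes were. Over all genes, 136 were called higher and 179 lower under Cpd-60 against vehicle, and 17 higher and 44 lower under CI-994. At the adjusted threshold limma called 0 probes for either compound against vehicle. With the BeadChip as a block, probes called under CI-994 went from 19 to 62 higher and from 68 to 119 lower.

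**Figure D3:**
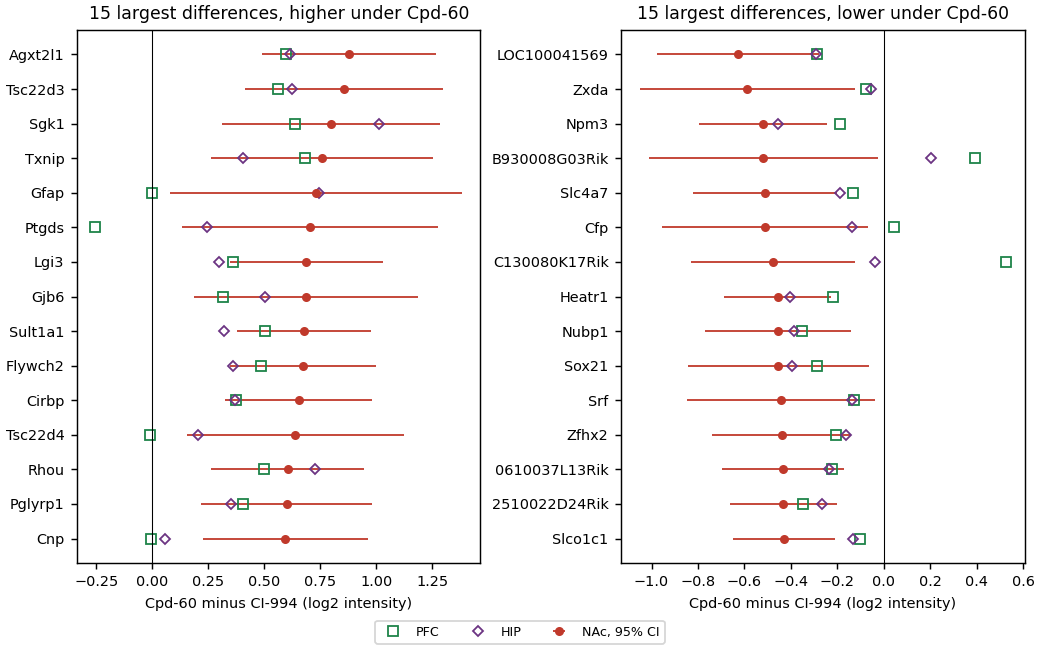
Cpd-60 minus CI-994 difference (x axis, log2 intensity) of the 15 leading higher and 15 leading lower genes (y axis). Red points with bars are NAc differences and 95% confidence intervals, and open squares and diamonds are the PFC and HIP differences. Most PFC and HIP points of the higher genes lie on the same side of 0 as NAc, except Ptgds in PFC and PFC values near 0 for Gfap, Tsc22d4 and Cnp, while among the lower genes B930008G03Rik lies above 0 in both other regions and Cfp and C130080K17Rik in PFC.

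The PFC and HIP of the same pools of mice gave measurements that did not enter the choice of genes, although they share the animals. Of the 15 leading higher genes, 10 were called higher under Cpd-60 than CI-994 in PFC and 11 in HIP, with 9 called in both. Of the 12198 genes tested in all 3 regions, 1.32% were called higher in PFC and 1.3% in HIP. Pools were split over BeadChips in PFC and HIP as in NAc, and these calls are without a block. Sgk1 differed by 0.64 in PFC and 1.01 in HIP, Agxt2l1 by 0.60 and 0.62, Tsc22d3 by 0.56 and 0.62, and Sult1a1 by 0.50 and 0.32. In PFC on BeadChip 1, Sgk1 was at 10.56 and 10.58 under Cpd-60 against 9.67 under CI-994. On BeadChip 2 it was at 9.81 against 9.61 and 9.75. In the same order, Agxt2l1 in PFC was at 7.78 and 7.99 against 7.04, and at 7.26 against 7.16 and 7.04. Sult1a1 in PFC was more even, at 8.07 and 7.78 against 7.49, and at 7.77 against 7.28 and 7.34. Gfap differed by 0.74 in HIP and -0.00 in PFC. Of the 15 leading lower genes, 2 were called lower in PFC (1.21% of the genes tested in all 3 regions) and 5 in HIP (2.42%). Nubp1 (-0.35 and -0.39) and 2510022D24Rik (-0.35 and -0.27) were called in both.

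Pools of Cpd-60 were also compared with each other across regions. In the 15 leading higher genes, Cpd-60 pool 3 was the lowest of the 3 Cpd-60 pools for 8 genes in NAc, for 12 in PFC and for 13 in HIP. In the 15 leading lower genes, pool 3 was the highest of the Cpd-60 pools for 4 genes in NAc, where pool 1 was for 7. It was the highest for 9 in PFC and 12 in HIP. The share over all genes is not given here, so these counts describe the chosen genes only. Cpd-60 pool 3 was the only Cpd-60 pool on BeadChip 2 in all 3 regions, with CI-994 pools 2 and 3 beside it, so pool and BeadChip cannot be told apart here. For Sgk1 the Cpd-60 pools were at 10.56, 10.58 and 9.81 in PFC and at 11.40, 11.21 and 10.59 in HIP. For Agxt2l1 they were at 7.78, 7.99 and 7.26 in PFC and at 7.87, 7.78 and 7.15 in HIP, whereas in NAc pool 3 was the highest. Without Cpd-60 pool 3, the probes called in NAc numbered 934 higher and 434 lower, in place of 271 and 185, and 5 probes passed an adjusted p under 0.05. These were Sgk1, Tsc22d3 (the second probe), Sult1a1, Cirbp and, named here after its values were seen, Camk1g, a calmodulin-dependent kinase. In that fit no Cpd-60 array remained on BeadChip 2. Without CI-994 pool 1, the only CI-994 pool on BeadChip 1, the counts were 699 higher and 428 lower, and without CI-994 pool 2 they were 158 and 166.

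A test of the regional difference itself, NAc minus the mean of PFC and HIP, passed the adjusted threshold for 0 of 17598 probes (limma, smallest adjusted p 0.974), and 693 probes, 3.94%, had an unadjusted p under 0.05. The latter count was 1978 without Cpd-60 pool 3, with 1 probe past the adjusted threshold, and 1867 without CI-994 pool 1. The 5 largest positive regional differences belonged to Pvalb, Ptgds, Insl6, Scd2 and Cnp. Pvalb, a calcium-binding protein of fast-spiking interneurons, was at 9.33, 8.50 and 9.07 under Cpd-60 in NAc against 8.09, 7.94 and 8.59 under CI-994. Its pools overlapped, and its difference was 0.76 in NAc, 0.02 in PFC and -0.01 in HIP. Scd2, a brain stearoyl-CoA desaturase, was at 9.12, 8.96 and 8.89 under Cpd-60 and at 8.57, 8.35 and 8.47 under CI-994, with vehicle at 9.19, 8.91 and 8.61. Here CI-994 was called lower than vehicle, by -0.44, and Cpd-60 differed from vehicle by 0.09. Scd2 differed between the compounds by -0.27 in PFC and 0.04 in HIP. The 5 largest negative regional differences belonged to B930008G03Rik, LOC386005, Hsd3b2, C130080K17Rik and Gpm6b, and of these LOC386005, Hsd3b2 and Gpm6b were not called in NAc.

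**Figure D4:**
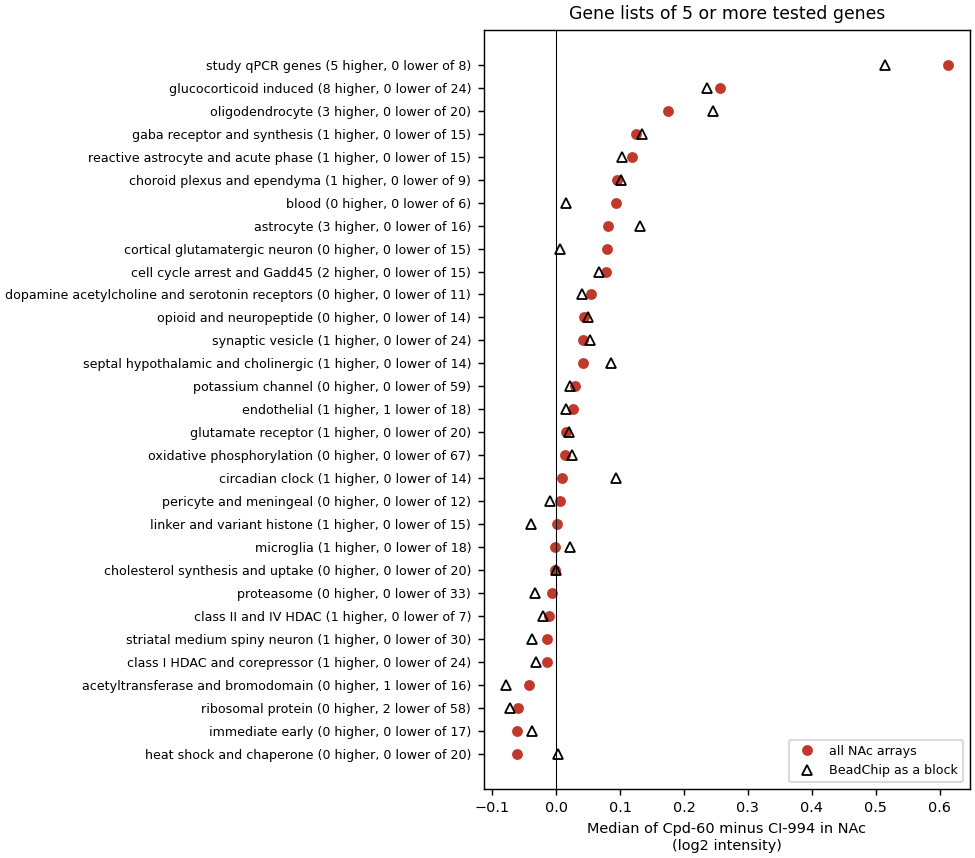
Median Cpd-60 minus CI-994 difference in NAc (x axis, log2 intensity) of each gene list with 5 or more tested genes (y axis, with the number of genes called higher and lower). Filled circles are the fit without and open triangles the fit with the BeadChip as a block. The lists of qPCR genes, glucocorticoid-induced genes and oligodendrocyte genes have the highest medians, at 0.61, 0.26 and 0.18.

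Gene lists were described by counts and medians, against a median of -0.01 over all 14548 genes. Genes induced by glucocorticoids through their receptor had 8 called higher and 0 lower of 24 tested (33 lists were counted, and 1.31% of all genes were called higher), with a median difference of 0.26. The list was written with earlier results known and holds Sgk1, Tsc22d3 and Sult1a1, which were picked from these arrays for qPCR, so its direction is not independent evidence. Besides these and Gjb6, the called members were S3-12 (now Plin4, a lipid droplet protein, 0.48), Tgm2 (a transglutaminase, 0.35), Nfkbia (the inhibitor of NF-kappaB, 0.57) and Fkbp5 (a cochaperone of the glucocorticoid receptor, 0.34). The Fkbp5 pools were at 7.80, 7.997 and 7.35 under Cpd-60 and at 7.44, 7.39 and 7.29 under CI-994, and they overlapped. With the block 8 genes were again called higher, Fkbp5 was lost (unadjusted p = 0.0561, limma) and Ddit4, a stress-induced inhibitor of mTOR, was gained. The list median was 0.33 within BeadChip 1 and 0.12 within BeadChip 2, -0.03 for CI-994 against vehicle and 0.28 for Cpd-60 against vehicle. It was 0.25 in PFC and 0.35 in HIP. Without Cpd-60 pool 3 the called members were 16, and without CI-994 pool 2 they were 6. Dusp1, Per1, Bcl6, Hif3a and Cebpd of this list differed by 0.04, 0.03, 0.00, -0.01 and -0.05 and were not called.

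Of 8 genes that had also been taken to qPCR, 5 were called higher and 0 lower, where 1.31% and 1.1% of all genes were. The 5 were Agxt2l1, Tsc22d3, Sgk1, Sult1a1 and Cacng5. The 8 genes had been selected on these arrays, so this direction is not independent evidence either. Cacng5, an AMPA receptor regulatory protein, was at 8.25, 8.55 and 8.33 under Cpd-60 against 8.07, 7.79 and 7.98 under CI-994, a difference of 0.43 ± 0.18. Mfsd2, now Mfsd2a, a lysophospholipid transporter of brain endothelium, was at 8.98, 9.33 and 8.12 against 8.37, 8.18 and 8.25, and the groups overlapped (0.55 ± 0.25, unadjusted p = 0.0502, limma). Rock2, a kinase of the actin cytoskeleton, had separate pools and a difference of -0.17 ± 0.06, below 1.2-fold. Qdpr, which regenerates tetrahydrobiopterin, differed by 0.15 ± 0.19, and its sign turned under median scaling of the arrays.

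Glial markers were counted as lists. Over all genes 1.31% were called higher and 1.1% lower, and with the block 1.32% and 1.77%. Of 20 oligodendrocyte genes, 3 were called higher (Cnp, Mog and Cldn11) and 0 lower, with a median of 0.18. With the block 5 were called higher and the median was 0.24. The median was 0.11 within BeadChip 1 and 0.57 within BeadChip 2. The Cldn11 call was lost in 9 of 12 fits that left out 1 pool, and its difference of 0.31 was 0.17 without Cpd-60 pool 3 (unadjusted p = 0.213, limma). Mog, a myelin surface protein, was at 8.99, 8.81 and 8.99 under Cpd-60 against 8.50, 8.29 and 8.49 under CI-994, and vehicle was at 9.26, 8.82 and 8.53. The Mog pools did not overlap between the compounds, but Cpd-60 differed from vehicle by 0.06 and CI-994 by -0.45. CI-994 and vehicle were unevenly split over the BeadChips. Mog was at 8.50 under CI-994 and 9.26 and 8.82 under vehicle on BeadChip 1. On BeadChip 2 it was at 8.29 and 8.49 under CI-994 and 8.53 under vehicle. Mbp, a major myelin gene, differed by 0.28 ± 0.15 and was not called. The summed oligodendrocyte intensity was 21146 to 31965 under Cpd-60, 19365 to 23801 under CI-994 and 21176 to 27290 under vehicle, and these ranges overlapped. Of 16 astrocyte genes, 3 were called higher, among them Gjb6 and Aldh1l1, with a median of 0.08, and 2 with the block. Their summed intensity was 18202 to 21072 under Cpd-60 and 17623 to 19292 under CI-994. Of 15 genes of reactive astrocytes and the acute phase, Gfap alone was called. Lcn2, an acute phase lipocalin, was at 6.69, 9.95 and 6.83 under Cpd-60 against 6.45, 6.35 and 6.58 under CI-994, and its difference of 1.36 ± 0.66, which came mostly from pool 2, was not called. The part of oligodendrocyte or astrocyte content in the differences of Cnp, Ptgds, Gfap and Gjb6 was not tested.

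Among the deacetylases themselves, 1 of 7 class II and IV genes was called higher, where 1.31% of all genes were. Hdac11, the class IV enzyme, was at 10.08, 9.96 and 9.57 under Cpd-60 against 9.40, 9.22 and 9.33 under CI-994, with vehicle at 9.69, 9.56 and 9.24. Its pools were separate, and the difference was 0.55 ± 0.16 (unadjusted p = 0.00509, adjusted p = 0.926, limma) and 0.45 with the block. Of 24 class I HDAC and corepressor genes, 1 was called, Tbl1xr1, a subunit of the NCoR complex (0.35 ± 0.13). Hdac2 and Hdac3, targets of the inhibitors, differed by -0.40 ± 0.41 and -0.02 ± 0.10 and were not called. With the block these differences were -0.10 and 0.02. Hdac1 does not appear by that name among the 24 tested genes. Cdkn1a, the p21 cell cycle inhibitor and a classical HDAC inhibitor response gene, had the largest called difference among list members, 1.10 ± 0.35 or 2.14-fold (unadjusted p = 0.0105, adjusted p = 0.926, limma). Its pools overlapped, at 8.36, 9.30 and 7.41 under Cpd-60 and 7.48, 7.29 and 7.01 under CI-994, with vehicle at 7.64, 7.57 and 7.48. Cpd-60 pool 3 was below all vehicle pools, and the Cdkn1a difference was 1.35 within BeadChip 1 and 0.26 within BeadChip 2. In HIP the Cdkn1a pools were at 7.84, 9.34 and 7.15 under Cpd-60 and 6.92, 6.87 and 6.90 under CI-994, without overlap. Hist1h1c, a linker histone, was at 9.96, 10.16 and 10.13 under Cpd-60 against 9.69, 9.82 and 9.76 under CI-994 (0.33 ± 0.08), with CI-994 below vehicle by -0.25. Cry2, a repressor of the circadian clock, was at 8.80, 8.70 and 8.37 against 8.26, 8.21 and 8.10 (0.43 ± 0.12).

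Neuronal and housekeeping lists held few called genes, and over all genes 1.31% were called higher and 1.1% lower. Of 30 striatal marker genes 1 was called higher, Rasgrp2, and the median was -0.01, with Drd1a at -0.10 ± 0.14 and Drd2 at 0.33 ± 0.27. Of 17 immediate early genes 0 were called (median -0.06), with Fos at -0.04 ± 0.21 and Egr1 at -0.69 ± 0.36. Of 67 oxidative phosphorylation genes 0 were called, and of 58 ribosomal protein genes 2 were called lower, among them Rpl4 (-0.26). The endothelial list of 18 had 1 called higher, Ly6c1, and 1 lower, Slco1c1. Ly6c1, a surface protein of brain endothelium, was at 9.28, 8.85 and 8.73 under Cpd-60, at 8.58, 8.26 and 8.51 under CI-994 and at 9.05, 8.88 and 8.79 under vehicle. The CI-994 pools of Ly6c1 were below all others, and the CI-994 minus vehicle difference was -0.46. Lists of glutamate receptors (Gria1), synaptic vesicle genes (Syt11), microglia (Fcer1g) and septal and hypothalamic genes (Trh) had 1 gene called higher each, and acetyltransferases 1 lower (Hat1). With the BeadChip as a block, Syt11 (0.26) and Fcer1g (0.24) fell short of 1.2-fold, the microglia list had 0 called, and the synaptic vesicle list had 0 higher and 2 lower, Stx1a and Unc13b. In 12 of the 33 lists 0 genes were called by limma at an unadjusted p under 0.05 and 1.2-fold, where the median SE of a difference was 0.10. Of 27 further called genes of the lists, 12 kept an unadjusted p under 0.05 in every fit that left out 1 pool. Among those that did not, Fkbp5 was at 0.21 and Nfkbia at 0.31 without Cpd-60 pool 2, Aldh1l1 at 0.15 and Rarres2 at 0.16 without the same pool, Rasgrp2 at 0.15 without Cpd-60 pool 1, and Gria1 at 0.18 without CI-994 pool 1. Cdkn1a stayed under that p in all of them and was at 0.62 without Cpd-60 pool 2.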

How the data were processed

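RNA from 36 brain samples was measured on Illumina MouseWG-6 BeadChips. The authors deposited raw intensity, without background subtraction or normalization, and a detection p-value for each of 45281 probes. The labels describe 1 Cpd-60 pool inconsistently: title and source name mice 3 and 4, the description mice 1 and 2; title and source were used. Methods give 2 suppliers for the mice.

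In R 4.3.3 with limma 3.58.1, all 36 arrays were quantile normalized together, floored at 1 and log2 transformed. Probes entered the tests if all 3 arrays of either compound had a detection p no higher than 0.2. The 12 NAc arrays were fitted with 4 group means and empirical Bayes moderation, with Benjamini-Hochberg adjustment over all probes. The regional test used 36 arrays with the pool of mice as a random block. Array symbols (21929 of 30869) were matched to current ones, and each gene is given by its brightest tested probe. Named genes are the 15 largest called differences per direction with separate pools, the 8 qPCR genes, the 5 largest regional differences per direction and members of the 33 lists. The comparison, lists and rules were chosen with earlier results of these data known. The fit was tested on simulated data with independent noise and no BeadChip shift, which does not cover the uneven split over BeadChips. Alternatives were neqc (offset 16), other scalings and filters, blocks, the methods' analysis of variance with Tukey's HSD, and each pool left out. Some genes of the lists are not reported here.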

Additional observations from a re-analysis of the deposited data

Results flagged for a closer look

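For a pair of the named genes, all Cpd-60 pools lay on one side of all CI-994 pools in NAc and on the other side in another region. Ptgds differed by 0.70 in NAc, with Cpd-60 higher, and by -0.25 in PFC, with Cpd-60 lower. In PFC its nearest pools were almost level, at 11.056 under Cpd-60 and 11.063 under CI-994. The regional difference of Ptgds was 0.71 (unadjusted p = 0.014, adjusted p = 0.991, limma). B930008G03Rik differed by -0.52 in NAc, by 0.39 in PFC and by 0.20 in HIP. In NAc its nearest pools were almost level, at 8.775 under Cpd-60 and 8.795 under CI-994. Its regional difference was -0.82 (unadjusted p = 0.0017, adjusted p = 0.991, limma). Both fail the correction over 17598 probes.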

How the results depend on the processing

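Counts in NAc are given as probes at an unadjusted p under 0.05, then higher and lower at 1.2-fold, against 1079, 271 and 185. They were 1078, 563 and 515 with neqc, 357, 15 and 184 with median scaling, 698, 258 and 178 at a detection p of at most 0.01, 2169, 299 and 198 without a detection filter, 1608, 281 and 310 with the BeadChip as a block, and 318, 50 and 43 with the analysis of variance and Tukey's HSD. Higher calls were thus 59.4% of calls, 7.54% with median scaling and 47.5% with the BeadChip block. With the replicate block they were 1643, 422 and 288. Pool numbers did not pair the samples: deviations of pools of the same number correlated at 0.43, -0.43 and 0.44, and only numbers 1 and 3 share a BeadChip. Leaving out 1 of the 12 pools gave 647 to 2276, 158 to 934 and 166 to 434, with 0 to 5 probes at the adjusted threshold. No probe passed it under the other alternatives. Qdpr turned to -0.085 with median scaling, the only change of direction among 60 named genes over 21 alternatives. Median scaling took 44 of the 60, analysis of variance 34, the 6 arrays alone 10, neqc 7, a detection p of 0.01 4, the BeadChip block 2, and the replicate block and quantile normalization of NAc alone 1 each below the threshold they had passed. Leaving out 1 pool of the compared groups took 8 to 19, the most without Cpd-60 pool 2 or CI-994 pool 3 (19 each), and 1 vehicle or SAHA pool 3 to 6. The regional test kept 0 probes at the adjusted threshold with neqc, the BeadChip block and no pool block, and leaving out 1 pool gave 0 to 1 of them and 474 to 1978 at an unadjusted p. Against vehicle, alternatives chosen after seeing the data moved Cpd-60 calls from 186 higher and 225 lower to 284 and 319 with the BeadChip block and 460 and 511 with neqc. CI-994 calls went from 19 and 68 to 62 and 119, and to 191 and 199. Of 264 list medians recomputed, 256 moved by less than the spread between pools. Why counts moved was not tested. Pools of 2 mice and 3 arrays a group limit the precision.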
